A study of Mus musculus with 8 samples.

Results

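The miRNAs mmu-miR-143-3p, mmu-miR-145a-5p, mmu-miR-199a-3p, mmu-miR-199a-5p and mmu-miR-214-3p, known from smooth muscle and mesenchymal cells, were measured in plasma and followed across imatinib, doxorubicin and solvent treatment of mice. The 5 were chosen by name, with earlier results of these data known. The prefix mmu (mouse) is left out from here on, and all 5 were present among the 1881 mouse miRNAs on the array. Plasma came from female NMRI mice, an outbred stock, aged 3 months. Imatinib (IMB) is a tyrosine kinase inhibitor whose targets include the PDGF receptors, and it was dosed orally at 100 mg/kg once a day for 9 days. Doxorubicin (DOX) is a DNA-damaging anthracycline, and it was injected intravenously at 3 mg/kg, 4 times on alternate days. Control mice (CTRL) had solvents alone. Each 1-colour array carried RNA of 1 plasma pool from 3 mice, with 3 IMB pools, 3 DOX pools and 2 CTRL pools, so the number of arrays limits every value. All arrays shared 1 slide. The labels call the pools biological replicates, and no mouse was measured alone. In pooled plasma, fewer releasing cells and less miRNA released per cell cannot be told apart.

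miR-143 and miR-145 are processed from 1 primary transcript that is transcribed strongly in vascular and visceral smooth muscle, where they help to keep the contractile state. PDGF signalling is known to drive smooth muscle cells away from that state. miR-199a and miR-214 come largely from Dnm3os, a transcript of the strand opposite to Dnm3, and they mark fibroblasts and other mesenchymal cells. In the RefSeq table Mir143 and Mir145a both lie within the lncRNA gene Carmn, and Mir199a-2 and Mir214 both lie within Dnm3os and Dnm3. Blood cells and platelets also carry some of these miRNAs, so their presence in plasma does not name a cell of origin.

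Mature sequences of 3 of the 5 miRNAs were found in RefSeq (GRCm38.p6). They are shown 5′ to 3′ with the seed, bases 2 to 8, in capitals, because the seed decides which messengers a miRNA pairs with.
miR-199a-3p: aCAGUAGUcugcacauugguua
miR-199a-5p: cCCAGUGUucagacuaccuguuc
miR-214-3p: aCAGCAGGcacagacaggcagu
The 2 arms of the miR-199a hairpin have different seeds. miR-199a-3p and miR-214-3p have the same base at 6 of their first 8 positions, but their seeds differ. miR-199a-3p shares its seed only with miR-199b-3p among the mature miRNAs of the table, and miR-214-3p shares its seed with miR-761. miR-199a-5p shares its seed with 0 others there, but the table has no mature sequence for miR-199b-5p. The bases CCAGUGU of the miR-199a-5p seed also stand in the 5′ part of the Mir199b hairpin printed in the next paragraph.

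The signal called miR-199a-3p can arise from 3 hairpins, and these are printed with the 3′ arm in capitals to show that the arm is the same in each.
Mir199a-2: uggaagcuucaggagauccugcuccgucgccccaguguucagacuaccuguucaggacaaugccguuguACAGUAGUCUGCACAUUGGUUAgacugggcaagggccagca
Mir199a-1: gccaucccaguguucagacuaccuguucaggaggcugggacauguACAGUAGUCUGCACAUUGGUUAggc
Mir199b: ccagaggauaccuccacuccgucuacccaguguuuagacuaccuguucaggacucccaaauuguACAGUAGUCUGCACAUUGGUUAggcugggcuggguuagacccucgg
Mir199a-2 lies at chr1:162217814-162217923 (plus strand) and Mir199a-1 at chr9:21496495-21496564 (minus strand) within Dnm2. Mir199b lies at chr2:32318460-32318569 (plus strand) within Dnm1. All 22 positions of miR-199a-3p and miR-199b-3p are alike, and the array has no entry under the name miR-199b-3p. The product of the 3 hairpins cannot be told apart by this sequence and is given as 1 miRNA. Mir214, at chr1:162223368-162223477 (plus strand), begins 5444 bases beyond the end of Mir199a-2.

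Signals were scaled so that arrays have the same 75th percentile over probes detected on all 8 arrays, and are given as log2 of the scaled signal with a floor of 4.40. A probe was taken as detected when more than 50% of its spots stood well above background. Having 1 such probe made a miRNA detected. By this rule miR-143-3p, miR-145a-5p, miR-199a-3p and miR-214-3p were detected on 8 of 8 arrays. miR-199a-5p was detected on 7 of 8, the exception being IMB pool 1. Agilent's own flag called all 5 miRNAs detected on all 8 arrays. All 5 met the filter for testing, which asked for detection on every array of at least 1 group and left 294 mouse miRNAs. Different miRNAs have different probes, so their signal levels are not ranked against each other.

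None of the 5 miRNAs differed between groups past the threshold of 0.05 in limma, after imatinib, after doxorubicin or between the drugs. Among all tested miRNAs the share past an adjusted p of 0.05 was 1.02% for IMB minus CTRL, 0.34% for DOX minus CTRL and 1.02% for IMB minus DOX. At an unadjusted p under 0.05 the count was again 0 of 5 in each comparison, against shares of 7.82%, 8.5% and 10.9% of all tested miRNAs. Groups overlapped for all 5 miRNAs in each comparison, whereas they did not overlap for 17.7% of tested miRNAs in IMB against CTRL, 28.6% in DOX against CTRL and 15% in IMB against DOX. A count of 0 called among 5 is near these background shares and does not set the 5 miRNAs apart.

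**Figure D1:**
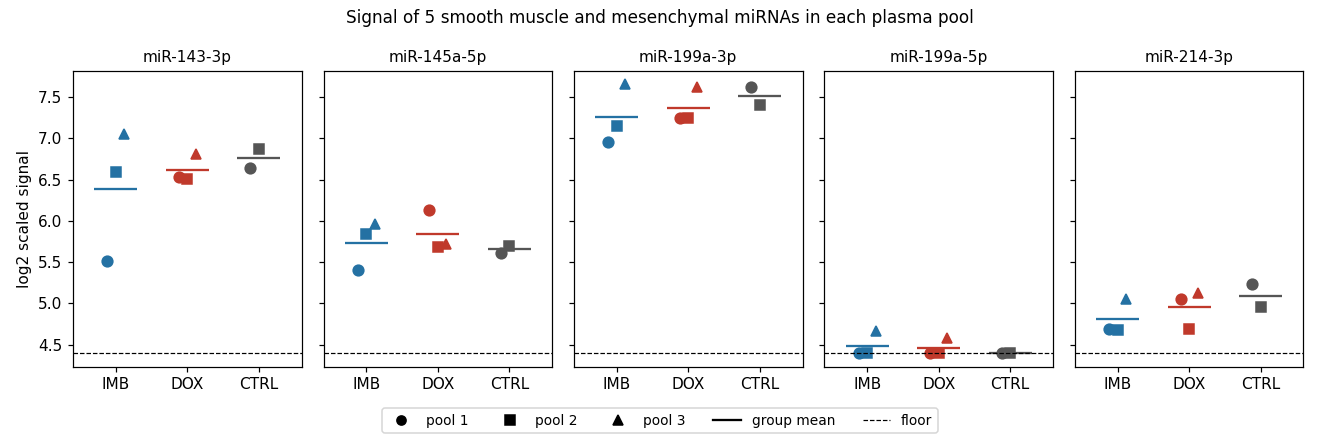
Log2 scaled signal (vertical axis) of each of the 5 miRNAs in every plasma pool, by group (horizontal axis). Markers give the pool number, solid lines the group means and the dashed line the floor of 4.40. The groups overlap for each miRNA, and IMB pool 1 is the lowest of the 8 pools for miR-143-3p, miR-145a-5p and miR-199a-3p.

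miR-143-3p, the smooth muscle miRNA with the widest spread here, had log2 scaled signals of 5.51, 6.60 and 7.05 in the IMB pools, 6.53, 6.51 and 6.80 in the DOX pools, and 6.64 and 6.87 in CTRL pools 1 and 2. The IMB pools held both the lowest and the highest of the 8 values, and IMB pool 1 lay about 1 log2 unit below the next lowest pool. The group means were 6.39 ± 0.79 (SD, n = 3) for IMB, 6.61 ± 0.17 (SD, n = 3) for DOX and 6.76 ± 0.16 (SD, n = 2) for CTRL. IMB minus CTRL was -0.37 (SE 0.45, 95% interval -1.48 to 0.74, limma adjusted p = 0.92), a ratio of 0.77 with an interval of 0.36 to 1.67. Without IMB pool 1 this difference was 0.07, so its sign rested on that pool. DOX minus CTRL was -0.14 (SE 0.45, limma adjusted p = 1) and IMB minus DOX was -0.23 (SE 0.40, limma adjusted p = 0.96), which became 0.21 without IMB pool 1. Of the 294 tested miRNAs, 284 had a smaller standard error than miR-143-3p for DOX minus CTRL in this fit. The fit shares 1 estimate of the spread over all 8 arrays, so the SE of 0.45 also carries IMB pool 1. With only the DOX and CTRL arrays in the fit, the SE of DOX minus CTRL was 0.14.

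Both probes of miR-143-3p gave the same picture. The scaled signal of one probe was 37.1 in IMB pool 1 and 80.8 and 110 in the other IMB pools, 75.4 to 90.6 in the DOX pools, and 83.6 and 96.5 in CTRL pools 1 and 2. The other probe gave 54.2 in IMB pool 1, 113 and 155 in the other IMB pools, 107 to 133 in the DOX pools, and 116 and 138 in the CTRL pools. Each probe has 15 spots on an array, and on every array 100% of the kept spots of both probes were well above background. The coefficient of variation among spots within an array ran from 4.65% to 13.1%, which covers the scatter between spots and not that of extraction, labelling or pooling. The authors' deposited table has log2 values of the same arrays by their own processing, so it is not a second measurement. In it miR-143-3p was lowest in IMB pool 1, at 4.32, with 5.27 to 5.90 on the other arrays.

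**Figure D2:**
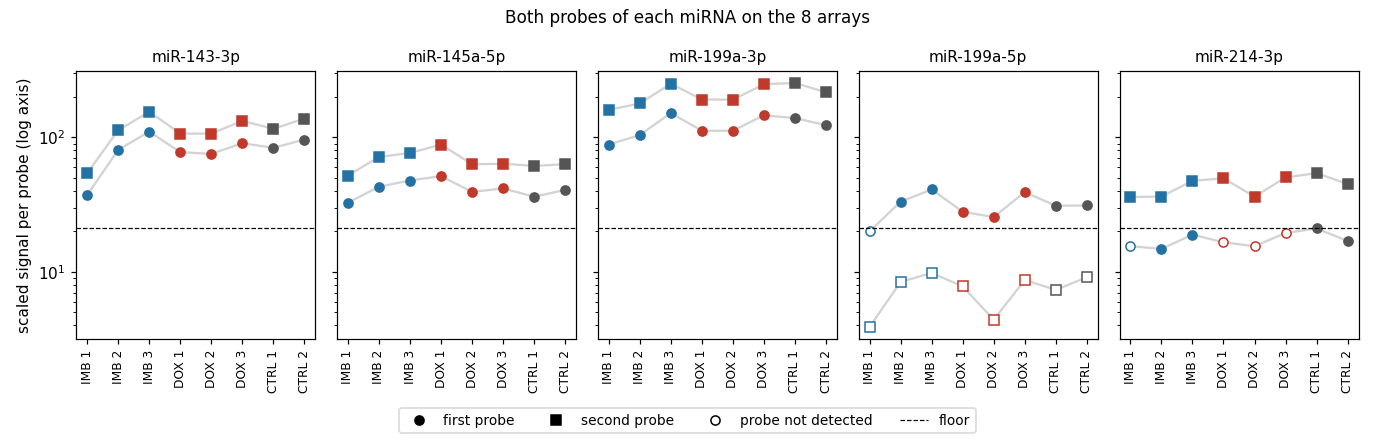
Scaled signal (vertical, log axis) of both probes of each miRNA on the 8 arrays (horizontal axis), in the order IMB, DOX, CTRL. Circles and squares are the first and second probe, open markers are probes that were not detected, and the dashed line is the floor of 21.1. For miR-143-3p, miR-145a-5p and miR-199a-3p both probes lie above the floor on all arrays and move together, while 1 probe of miR-199a-5p was not detected on any array.

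miR-145a-5p, which shares its primary transcript with miR-143, moved over a narrower range. Its log2 scaled signals were 5.40, 5.84 and 5.96 in the IMB pools, 6.13, 5.68 and 5.72 in the DOX pools, and 5.61 and 5.70 in the CTRL pools. IMB pool 1 was again the lowest pool, and DOX pool 1 was the highest. Group means were 5.73 ± 0.29 (SD, n = 3) for IMB, 5.84 ± 0.25 (SD, n = 3) for DOX and 5.65 ± 0.06 (SD, n = 2) for CTRL. IMB minus CTRL was 0.08 (SE 0.21, 95% interval -0.45 to 0.61, limma adjusted p = 0.99), and DOX minus CTRL was 0.19 (SE 0.21, 95% interval -0.34 to 0.71, limma adjusted p = 0.93). IMB minus DOX was -0.11 (SE 0.19, limma adjusted p = 0.96), and without IMB pool 1 it was 0.057. As ratios, the interval for IMB against CTRL spans 0.73 to 1.52, a tighter bound than for miR-143-3p.

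miR-199a-3p, the mesenchymal 3′ arm described above, had log2 scaled signals of 6.96, 7.15 and 7.66 in the IMB pools, 7.25, 7.24 and 7.63 in the DOX pools, and 7.62 and 7.41 in the CTRL pools. IMB pools 1 and 2 were the lowest of the 8 and IMB pool 3 was the highest. Means were 7.25 ± 0.36 (SD, n = 3) for IMB, 7.37 ± 0.22 (SD, n = 3) for DOX and 7.52 ± 0.15 (SD, n = 2) for CTRL. IMB minus CTRL was -0.26 (SE 0.24, 95% interval -0.85 to 0.33, limma adjusted p = 0.87), which is a ratio of 0.83 with an interval of 0.55 to 1.26. DOX minus CTRL was -0.14 (SE 0.24, 95% interval -0.73 to 0.45, limma adjusted p = 0.96) and IMB minus DOX was -0.12 (SE 0.21, limma adjusted p = 0.96). Without IMB pool 1 these became -0.11 for IMB minus CTRL and 0.028 for IMB minus DOX. Both probes had the same signs, at -0.23 and -0.28 for IMB minus CTRL and at -0.10 and -0.17 for DOX minus CTRL.

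miR-214-3p, the partner of miR-199a-2 in Dnm3os, lay close to the floor. Its log2 scaled signals were 4.69, 4.67 and 5.05 in the IMB pools, 5.05, 4.69 and 5.13 in the DOX pools, and 5.23 and 4.95 in CTRL plasma. The highest pool was a control, and 2 IMB pools and 1 DOX pool lay near 4.7. Means were 4.80 ± 0.22 (SD, n = 3) for IMB, 4.96 ± 0.23 (SD, n = 3) for DOX and 5.09 ± 0.20 (SD, n = 2) for CTRL. IMB minus CTRL was -0.29 (SE 0.19, 95% interval -0.76 to 0.18, limma adjusted p = 0.76, unadjusted p = 0.18), the smallest p of the 15 member comparisons. DOX minus CTRL was -0.14 (SE 0.19, limma adjusted p = 0.96) and IMB minus DOX was -0.15 (SE 0.17, limma adjusted p = 0.81). With normexp background correction both differences from the controls turned positive, at 0.04 for IMB and 0.16 for DOX. The level rested mainly on 1 probe, detected on 8 arrays at 36.0 to 54.2 scaled units, since the other was detected on 4 arrays at 14.8 to 21.0, at or below the floor of 21.1.

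miR-199a-5p, the other arm of the miR-199a hairpin, was too dim to be compared with confidence. The mean of its probes was at the floor on 6 of 8 arrays, both controls among them, and was 4.67 in IMB pool 3 and 4.58 in DOX pool 3. Its limma differences of 0.09 for IMB minus CTRL and 0.06 for DOX minus CTRL therefore depend on the floor, and both turned negative with a floor 4 times lower. The brighter probe, detected on 7 arrays, had scaled signals of 19.96, 33.2 and 41.0 in the IMB pools, 28.0, 25.5 and 39.2 in the DOX pools, and 31.0 and 31.2 in the CTRL pools. On this probe the 3 groups also overlapped, and IMB minus CTRL was -0.022 on the log2 scale. The dimmer probe reached at most 9.80 scaled units and was not detected on any array.

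**Figure D3:**
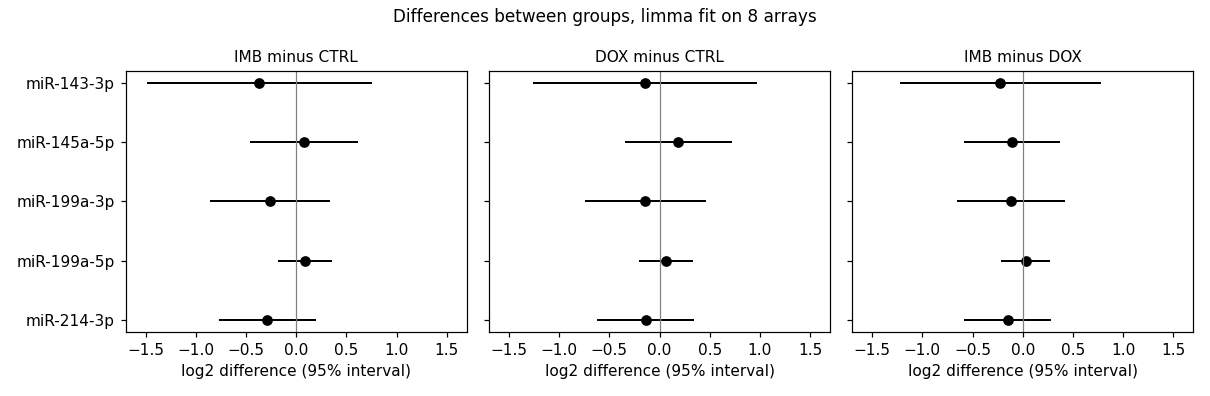
Log2 differences (horizontal axis, points) with 95% intervals (lines) for the 5 miRNAs (vertical axis) in 3 comparisons, from a limma fit on all 8 arrays. Every interval crosses 0, and the intervals of miR-143-3p are the widest of the 5.

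Arms and paralogs of the same loci were mostly below detection. miR-143-5p, miR-145a-3p, miR-145b and miR-214-5p were detected on 0 of 8 arrays, so for the miR-143, miR-145a and miR-214 hairpins only 1 arm was measurable in plasma. miR-199b-5p, the 5′ arm of Mir199b, was detected on 7 arrays and, like miR-199a-5p, was not detected in IMB pool 1. Its log2 scaled signals were 4.40 (the floor), 4.91 and 5.16 in the IMB pools, 4.85, 4.54 and 5.12 in the DOX pools, and 5.12 and 4.63 in the CTRL pools. These values overlapped between groups, with IMB minus CTRL at -0.06 (SE 0.30, limma adjusted p = 1) and DOX minus CTRL at -0.04 (SE 0.30, limma adjusted p = 1).

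The relation between miRNAs that can come from 1 transcript was examined across pools. It covered the 2 pairs in which both miRNAs were detected on all 8 arrays. miR-199a-3p and miR-214-3p varied together, with Pearson r = 0.84 (n = 8 pools, exact permutation p = 0.014, adjusted over 2 pairs 0.028) and Spearman rho = 0.86 (exact permutation p = 0.011, adjusted 0.021). Without IMB pools 1 and 3, the 2 farthest from the median of miR-199a-3p, r was 0.84, and after subtracting group means it was 0.81. Each row of the slide held 4 arrays, too few for a value of its own. miR-143-3p and miR-145a-5p gave r = 0.59 (n = 8 pools, exact permutation p = 0.12, adjusted 0.12) and rho = 0.40 (exact permutation p = 0.33, adjusted 0.33). Without IMB pools 1 and 3 this r was -0.41, and without IMB pool 1 alone it was 0.02, so over all pools the positive relation of this pair rested on IMB pool 1. After subtracting group means, with IMB pool 1 included, r was 0.70. Values of a pool share 1 labelling and 1 scaling factor, and the share of that in either relation was not tested.

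**Figure D4:**
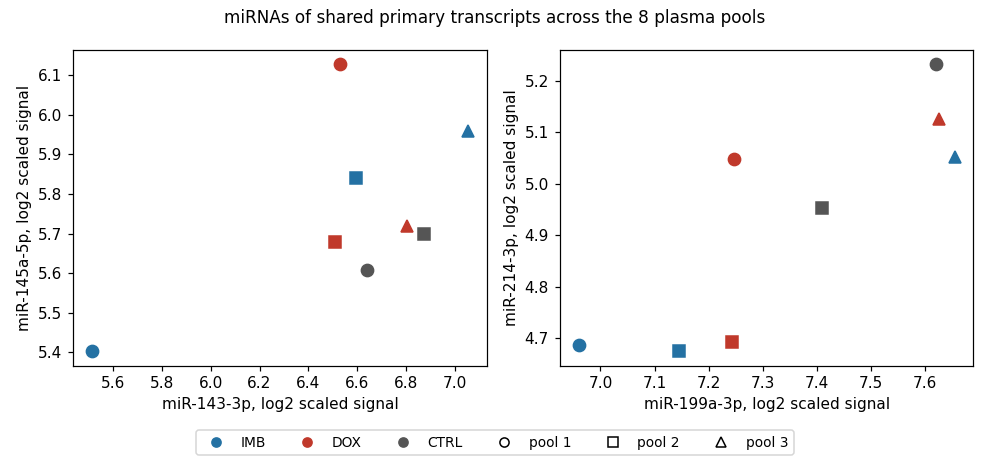
Log2 scaled signal of miR-145a-5p against miR-143-3p (left) and of miR-214-3p against miR-199a-3p (right), 1 point per plasma pool, with colour for the group and marker shape for the pool number. miR-214-3p and miR-199a-3p run along a rising line (r = 0.84), whereas in the other pair IMB pool 1 stands alone at the lower left.

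A difference between 2 miRNAs within an array does not depend on the scaling of that array. miR-143-3p minus miR-145a-5p was 0.11, 0.76 and 1.09 in the IMB pools, 0.40, 0.83 and 1.08 in the DOX pools, and 1.03 and 1.17 in CTRL pools 1 and 2. The pools of each drug spanned a wider range than the 2 controls, but 2 pools are too few to measure variability. Pool 3 of each drug lay between the 2 controls. miR-199a-3p minus miR-214-3p was 2.45 ± 0.17 (SD, n = 3) in the IMB pools, 2.42 ± 0.19 (SD, n = 3) in the DOX pools and 2.42 ± 0.05 (SD, n = 2) in the CTRL pools. The group means of this pair lay closer to each other than the SD between pools of either drug.

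Among miRNAs detected on all arrays, those whose log2 scaled signal ran most alike over the 8 pools were listed for each of the 4 miRNAs, as a description over 240 compared miRNAs. miR-195a-5p, of the miR-15 and miR-16 seed family, came first for miR-199a-3p (r = 0.96), and miR-497a-5p, its cluster neighbour, second (r = 0.86). miR-214-3p came next (r = 0.84). For miR-214-3p the closest were miR-199a-3p, miR-195a-5p (r = 0.84) and miR-6965-5p (r = 0.69). For miR-143-3p they were miR-7088-5p (r = 0.89), miR-195a-5p (r = 0.86) and miR-125a-5p (r = 0.84). Without IMB pool 1 the likeness of miR-143-3p to miR-7088-5p dropped to r = 0.23, whereas that of miR-199a-3p to miR-195a-5p was 0.93. For miR-145a-5p the closest were miR-125a-5p (r = 0.83), miR-712-5p (r = 0.83) and miR-3474 (r = 0.80). miR-145a-5p itself ranked 34 of 240 in likeness to miR-143-3p. The median r over the compared miRNAs was -0.14 for miR-199a-3p and -0.17 for miR-143-3p.

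A wider list of 22 miRNAs often found in fibroblasts and smooth muscle was set beside the 5. Of these, 16 were tested, 6 were not detected on any array, and 0 of 16 passed in any comparison, up or down. The list leaned below 0 in IMB minus CTRL, with 13 of 16 differences negative and a median of -0.17, against 39.1% of all tested miRNAs and a median of 0.01. The list was chosen with earlier results of these data known, and its miRNAs were measured in the same pools. Its counts are therefore a description and not a test. In DOX minus CTRL 8 of 16 were negative, with a median of 0.02, against 40.8% and a median of 0.00 over all. In IMB minus DOX 13 of 16 were negative with a median of -0.23, against 49.3% and a median of 0.00 over all. In IMB minus CTRL the 16 differences ran from -0.46 for miR-29b-3p to 0.09 for miR-30a-5p, and miR-21a-5p, miR-29a-3p and miR-29c-3p were at -0.44, -0.36 and -0.28 (named after their values were seen). The IMB and CTRL pools did not overlap for 5 of the 16, against 17.7% of all tested miRNAs. The first 4 of the list, named by their place in it, are given next. miR-100-5p differed by 0.05 (SE 0.11) in IMB minus CTRL, miR-125b-5p by -0.09 (SE 0.21), miR-10b-5p by -0.23 (SE 0.15) and miR-22-3p by 0.08 (SE 0.15). Of the 5 miRNAs themselves, 3 were below 0 in IMB minus CTRL (median -0.26), 3 in DOX minus CTRL (median -0.14) and 4 in IMB minus DOX (median -0.12). IMB minus CTRL and DOX minus CTRL share the 2 control pools.

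Markers of other sources varied beside these values. The summed scaled signal of 5 red cell miRNAs, of which miR-144-5p was not detected, was 31864 to 40248 in the IMB pools, 17968 to 27048 in the DOX pools and 22610 to 37620 in the CTRL pools. Of the 4 tested red cell miRNAs, 1 rose, miR-144-3p, by 0.82 (SE 0.07, limma adjusted p = 0.0077) in IMB minus CTRL and by 1.20 (SE 0.06, limma adjusted p = 0.0009) in IMB minus DOX. Over all tested miRNAs 1.02% passed in each of these comparisons. With no scaling or with the 75th percentile over all probes, 0 miRNAs passed in IMB minus CTRL. The same held without IMB pool 2 and without IMB pool 3, so the call of miR-144-3p against the controls was lost there. The median difference of the 4 red cell miRNAs was 0.36 in IMB minus CTRL, with 0 of 4 below 0. It was -0.45 in DOX minus CTRL, with 4 of 4 below 0, and 0.90 in IMB minus DOX, with 0 of 4 below 0. Over all tested miRNAs the shares below 0 were 39.1% for IMB minus CTRL, 40.8% for DOX minus CTRL and 49.3% for IMB minus DOX. The summed signal of 4 platelet miRNAs on the array, of which miR-191-5p was not detected, was 2443 to 3173 in the IMB pools, 3782 to 3917 in the DOX pools and 3074 to 3475 in the CTRL pools. That of 4 endothelial miRNAs was 666 to 1155 in the IMB pools, 1135 to 1277 in the DOX pools and 876 to 932 in the CTRL pools, and it was lowest in IMB pool 1. The platelet and endothelial lists share miR-126a-3p, and the platelet list shares miR-24-3p with the wider mesenchymal one. In IMB minus CTRL, 3 of 3 tested platelet miRNAs (median -0.21) and 4 of 4 endothelial ones (median -0.20) were below 0. In IMB minus DOX all of them were again below 0, with medians of -0.48 and -0.42. In DOX minus CTRL 0 of 3 and 0 of 4 were below 0. The lean of the wider mesenchymal list below 0 in the 2 IMB comparisons was therefore not particular to it. In each comparison 0 of 3 platelet and 0 of 4 endothelial miRNAs passed the threshold. Of 6 striated muscle miRNAs 3 were not detected on any array. The sum of the 6 was 160 to 1175 in the IMB pools and 171 to 372 in the DOX pools. In the CTRL pools it was 133.1 to 133.3. A miRNA below the floor enters these sums at the floor value. In CTRL pools 1 and 2, 5 of the 6 were at the floor, so the narrow control range mostly reflects the floor. At the floor were 3 of the 6 in each DOX pool, and 3, 3 and 4 in the IMB pools. For the liver miRNA miR-122-5p the scaled signal was 608 to 2408 in the IMB pools, 1151 to 1870 in the DOX pools and 814 to 984 in the CTRL pools. This miRNA differed by 0.65 (SE 0.61) in IMB minus CTRL and by -0.05 (SE 0.55) in IMB minus DOX. In DOX minus CTRL it differed by 0.70 (SE 0.61, limma adjusted p = 0.91), and these pools did not overlap, as for 28.6% of tested miRNAs. The part of these sources in the values of the 5 miRNAs was not tested.

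Before scaling, the 75th percentile of IMB pool 1 was 196, the lowest of the 8 arrays, which ranged up to 425. That of DOX pool 1 was 213. IMB pool 1 held the lowest value of 16.3% of the tested miRNAs, and of 3 of the 5 miRNAs here. Other pools were not far behind over all tested miRNAs, with 14.6% for IMB pool 2, 13.6% for IMB pool 3 and 12.2% for DOX pool 3. Within row 1 of the slide miR-143-3p was 1 IMB pool against 1 CTRL pool and differed by -1.13, while within row 2 it was 2 IMB pools against 1 CTRL pool and differed by -0.05. With the row as a block the difference was -0.48 (limma adjusted p = 0.69). For miR-199a-3p IMB minus CTRL was -0.66 in row 1 and -0.0091 in row 2, and for miR-214-3p it was -0.55 and -0.09.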

How the data were processed

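Per the labels' protocols, RNA from 300 µl of pooled plasma was labelled with Cy3 (3.1 µl per array). Per the file headers and the submitters' processing notes, Agilent Feature Extraction 11.5.1.1 produced the deposited spot intensity, which has background removed and no scaling to other arrays. The authors' deposited table has log2 values with column medians of -3.32 to -3.20. How these were made is not stated in the labels, and their ranks equal those of Agilent's signal per miRNA.

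Spots that were not outliers were averaged per probe. Arrays were brought to a common 75th percentile, taken from the 454 probes that were detected on all 8, and a miRNA's level is the linear mean of its probes. Levels under 21.1, the median over arrays of percentile 1 of detected signal, were raised to it before log2. No spot was saturated. limma 3.58.1 (R 4.3.3, lmFit and eBayes, 2-sided) was run on 294 miRNAs over all 8 arrays, with Benjamini-Hochberg adjustment in each comparison, and was tested on simulated data. Its p-values measure the spread between pools. Named were the 5 miRNAs, their arms and paralogs, up to 4 miRNAs of each list and the 3 most alike. Members and lists were chosen with earlier results of these data known. Correlations used scipy 1.17.1 and figures matplotlib 3.10.9.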

Additional observations from a re-analysis of the deposited data

How the results depend on the processing

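Under 23 alternatives, 0 of the 5 miRNAs passed the threshold in any comparison, but signs of single differences were not stable. Leaving arrays unscaled moved the median of all tested miRNAs by -0.32 (DOX minus CTRL) and 0.23 (IMB minus DOX); miR-145a-5p then gave -0.034 for IMB minus CTRL and -0.23 for DOX minus CTRL, miR-199a-5p -0.090 for DOX minus CTRL, and IMB minus DOX was 0.081 for miR-143-3p, 0.20 for miR-145a-5p, 0.19 for miR-199a-3p and 0.23 for miR-214-3p. Normexp moved the median by 0.11 for DOX minus CTRL and gave miR-214-3p 0.044 (IMB minus CTRL) and 0.16 (DOX minus CTRL), and miR-199a-5p -0.030 (IMB minus DOX). Besides the settings that leave out a pool, given below, the other sign changes, apart from miR-145a-5p at -0.0010 for IMB minus CTRL in the authors' deposited table, concerned miR-199a-5p near the floor. In IMB minus CTRL it was -0.091 with Agilent's signal per miRNA, -0.089 with a floor 4 times lower and -0.022 with the brightest probe. In DOX minus CTRL it was -0.048, -0.081 and -0.034 under the same settings and -0.014 with the replicate block. In IMB minus DOX it was -0.043 with Agilent's signal, -0.0077 with the lower floor, -0.010 with the row as a block and -0.076 in the authors' table. The cause of these changes was not tested.

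Leaving out 1 pool at a time gave, for IMB minus CTRL, -0.70 to 0.068 for miR-143-3p, -0.032 to 0.25 for miR-145a-5p, -0.46 to -0.11 for miR-199a-3p, 0 to 0.13 for miR-199a-5p and -0.43 to -0.15 for miR-214-3p. DOX minus CTRL was -0.26 to -0.028 for miR-143-3p, 0.046 to 0.27 for miR-145a-5p, -0.27 to -0.037 for miR-199a-3p, 0 to 0.093 for miR-199a-5p and -0.28 to 0.0036 for miR-214-3p. IMB minus DOX was -0.56 to 0.21 for miR-143-3p, -0.22 to 0.057 for miR-145a-5p, -0.32 to 0.028 for miR-199a-3p, -0.062 to 0.090 for miR-199a-5p and -0.28 to -0.066 for miR-214-3p. With 1 control left out, the other is assumed to vary like the drug pools. In each of these 15 ranges, leaving out 1 pool moved the difference by over 1.5 times. With the replicate block no call changed, and IMB minus CTRL was -0.58 for miR-143-3p, -0.43 for miR-199a-3p (limma adjusted p = 0.47, unadjusted 0.029) and -0.39 for miR-214-3p (limma adjusted p = 0.47, unadjusted 0.020). Without IMB pool 3, miR-199a-3p was at -0.46 (limma adjusted p = 0.50, unadjusted 0.048). Whether replicate numbers pair the pools could not be decided. As departures from group means and not as whole profiles, same-numbered pools correlated at -0.24 to 0.40, and differently numbered ones at -0.46 to 0.47. With 2 controls, the values for CTRL pools 1 and 2 mirror each other, as at 0.40 and -0.40 for DOX pool 1. A slide block was not possible with 1 slide. The setting that keeps only miRNAs detected on all 8 arrays has no value for miR-199a-5p. Signal near background limits miR-199a-5p and miR-214-3p.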
